A study of Mus musculus with 6 samples.

Results

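Nuclear factor kappa B (NF-kB) switches on many of its own inhibitors, and 10 of these feedback genes were followed here through mouse lung leukocytes after lipopolysaccharide (LPS), a cell-wall component of Gram-negative bacteria. They were the inhibitor-of-kappa-B (IkB) genes Nfkbia, Nfkbib, Nfkbid, Nfkbie, Nfkbiz and Bcl3, the A20 gene Tnfaip3, the A20-binding partners Tnip1 and Tnip3, and Birc3. The genes were taken by symbol, and each of the 10 matched 1 of the 32285 features of the count matrices. The study compared wild-type (WT) mice, whose strain the series' text writes as C65BL6, with NOS1 knockout (KO) mice, which lack neuronal nitric oxide synthase. Mice were given 10 mg/kg LPS or vehicle into the peritoneal cavity, and lung cells positively selected for CD45 were sequenced in droplets after 4 h. There were 6 libraries, namely 1 of WT vehicle, 1 of KO vehicle, 2 of WT LPS and 2 of KO LPS. In the mm10 build, Nfkbia lies at chr12:55489410-55492647 (minus strand), Nfkbib at chr7:28758251-28767512 (minus), Nfkbie at chr17:45555703-45563169 (plus), Nfkbid at chr7:30421732-30428746 (plus), Nfkbiz at chr16:55811375-55838899 (minus) and Bcl3 at chr7:19808462-19822770 (minus). Tnfaip3 lies at chr10:19000910-19015657 (minus), Tnip1 at chr11:54910785-54962917 (minus), Tnip3 at chr6:65525313-65634040 (plus) and Birc3 at chr9:7848699-7873186 (minus), and the counts cover each gene as a whole. The knockout allele, age, sex and number of mice behind a library are not stated in these sources, and the labels do not say that the LPS libraries of a genotype came from separate animals. Each p-value below thus reflects variation among libraries alone, possibly only technical variation.

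NF-kB dimers are held in the cytoplasm by IkB proteins until a receptor such as TLR4, the sensor of LPS, activates the IkB kinases, which mark the IkBs for destruction. Freed NF-kB then induces Nfkbia and its relatives, whose new protein takes the factor back out of the nucleus. A second brake acts further up: A20, encoded by Tnfaip3, edits ubiquitin chains on the signalling complexes with the help of the ABIN proteins encoded by Tnip1 and Tnip3. Nfkbid, Nfkbiz and Bcl3 encode nuclear IkBs, which bind NF-kB on DNA and raise or lower particular targets, and Birc3 encodes cIAP2, a ubiquitin ligase of the tumour necrosis factor receptor complex that is itself an NF-kB target.

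RefSeq promoter windows (GRCm38.p6, 250 bases before to 50 after the start) were available for 9 of the 10 genes, Nfkbiz being the other. The kB consensus site, a motif of 10 bases searched on both strands, was found in 7 of these 9 genes (77.8%), in 2581 of the 27025 genes with a window (9.55%) and in 8.46% of all 32851 windows. Among the 36 genes with a window in the pathway lists described further on, 8 had a match (22.2%). A match describes the letters only, and its absence from the windows of Nfkbib and Birc3 says only that these letters are not there. The upstream parts of 4 windows are printed because these genes were among the most strongly raised in neutrophils, monocytes or endothelial cells, with the matches in capitals, written 5′ to 3′ on the gene's strand:

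Nfkbia promoter, chr12:55492648-55492897, minus strand: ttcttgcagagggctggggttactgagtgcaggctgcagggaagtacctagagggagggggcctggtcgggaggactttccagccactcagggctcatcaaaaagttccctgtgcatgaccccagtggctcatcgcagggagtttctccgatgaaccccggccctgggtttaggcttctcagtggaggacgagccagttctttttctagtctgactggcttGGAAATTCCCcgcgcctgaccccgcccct

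Tnfaip3 promoter, chr10:19015411-19015660, minus strand: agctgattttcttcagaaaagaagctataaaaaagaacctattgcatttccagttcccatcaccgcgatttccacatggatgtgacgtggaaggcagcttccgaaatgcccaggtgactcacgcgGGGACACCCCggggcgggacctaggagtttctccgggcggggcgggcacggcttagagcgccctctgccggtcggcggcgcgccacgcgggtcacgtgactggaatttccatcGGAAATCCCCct

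Tnip1 promoter, chr11:54962941-54963190, minus strand: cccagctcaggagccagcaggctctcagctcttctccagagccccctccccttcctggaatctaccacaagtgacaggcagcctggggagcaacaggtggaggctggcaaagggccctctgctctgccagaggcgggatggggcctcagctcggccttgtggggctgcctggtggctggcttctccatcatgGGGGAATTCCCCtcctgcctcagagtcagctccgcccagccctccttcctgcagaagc

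Tnip3 promoter, chr6:65590148-65590397, plus strand: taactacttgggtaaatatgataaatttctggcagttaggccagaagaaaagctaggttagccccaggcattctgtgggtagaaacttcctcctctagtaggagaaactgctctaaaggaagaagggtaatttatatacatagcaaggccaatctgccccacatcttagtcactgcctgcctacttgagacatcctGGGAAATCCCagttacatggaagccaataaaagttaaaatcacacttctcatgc

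The Nfkbia match began 29 bases before the start, those of Tnfaip3 125 and 12 bases before it, and that of Tnip3 54 bases before it. The Tnip3 window lies inside the gene span given above (chr6:65525313-65634040), so the RefSeq start used there is not the first base of that span. In Tnip1 the capitals hold 3 overlapping matches, which began 58, 57 and 56 bases before the start. The matches of the other genes are shown in 30 bases each, to set the IkB genes that rose in every class (Nfkbie and Bcl3) beside Nfkbid, which did not:

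Nfkbid, first site, chr7:30422170-30422199, plus strand: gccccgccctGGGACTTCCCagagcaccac

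Nfkbid, next site, chr7:30422215-30422244, plus strand: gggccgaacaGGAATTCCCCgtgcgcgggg

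Nfkbie site, chr17:45555584-45555613, plus strand: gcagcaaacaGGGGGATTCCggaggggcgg

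Bcl3 site, chr7:19822734-19822763, minus strand: tcggcggcagGGGAAGTCCCgctgcccggc

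The Nfkbid matches began 226 and 181 bases before the start of 1 of its 3 windows, the Nfkbie match 106 bases before the start, and the Bcl3 match 2 bases after it. Together with Nfkbia, Tnfaip3, Tnip1 and Tnip3 these were 7 genes of which Nfkbid alone fell in any class after LPS.

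The libraries held 55361477 to 115225284 UMIs (unique molecular identifiers, each counted as 1 RNA molecule), and 52170 cells were kept, of which 51362 fell into classes named by marker genes. Class names stand for "neutrophil-like" and so on, since they come from clusters. In every library 11 classes had at least 30 cells and were tested. Despite the CD45 selection they included endothelial and stromal cells, in which Ptprc, the CD45 gene, stood at 24.2 to 138 and 65.6 to 195 CPM (counts scaled to the class total), against 354 to 2274 CPM in the other 9 classes. Nos1 had 0 to 4 UMIs per library, too few to check the knockout. Transcripts that mark sex differed between the groups. Cells with Y-linked but no Xist UMIs made up 44.2% of the WT vehicle library and at most 0.0436% of the KO vehicle and WT LPS libraries, whereas the KO LPS libraries held 21.9% and 19.5% such cells beside 30.9% and 32.0% with Xist UMIs only. The libraries also shared 442 cell barcodes. Median mitochondrial share was 4.32% and 4.18% in the vehicle libraries, 0.546% and 0.801% in the WT LPS and 1.95% and 2.14% in the KO LPS libraries. In most classes vehicle and LPS cells sat in different clusters, for example 968 of 971 vehicle neutrophils in cluster 23 and all but 1 of the 16312 LPS neutrophils in 10 others, whereas stromal cells of both groups shared clusters. Among classical monocytes, cluster 27 (212 and 234 WT and 158 and 117 KO LPS cells, 4 and 3 vehicle cells) was led by Prtn3, Mpo and Elane, known from granulocyte progenitors, and cycling genes, with none of the class's markers among its top 10 genes. Among B cells, cluster 28 (94 to 254 LPS cells, 1 in each vehicle library) was led by Rag1, a gene of developing lymphocytes. Dendritic cells had 2 clusters. Cluster 40, led by Ckb, Mgl2 and Cd209a, held 334 of 404 vehicle but 33 of 731 LPS cells. Cluster 26, led by Ccl22, Ccl17 and Fscn1, held the rest. Fewer cells of a subtype and less RNA per cell cannot be told apart in sums over a class.

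LPS was followed by a rise of nearly the whole set in every class. UMIs were summed per library and class, and levels are CPM after TMM scaling within the class. Of 109 tests of a gene in a class, 100 rose, 3 fell and 6 did not pass the threshold (edgeR quasi-likelihood test, adjusted p under 0.05), against 29.1% higher and 26.8% lower over all genes and classes. As each genotype had 1 vehicle library, the spread in every test came from the LPS duplicates, and vehicle libraries are assumed to vary as they do. All LPS libraries lay above both vehicle libraries in 101 of 110 pairs of gene and class and below them in 3, while the same held for 28.8% and 29.2% of all pairs of a gene and a class with a mean of at least 1 CPM. All 10 genes rose in alveolar macrophages, where 28.9% of all genes tested rose, and in endothelial cells, where 33.2% did. Among myeloid cells, 9 of 10 rose in neutrophils (31.3% of all genes), classical monocytes (32.8%), dendritic cells (27.8%) and interstitial macrophages (29.6%), and 8 of 10 in nonclassical monocytes (30.6%). The lymphocytes were alike in number, with 9 of 10 in B cells (33.4%), T cells (26.3%) and NK cells (24.4%), and in stromal cells all 9 genes tested rose (16.7%). All 3 falls were of Nfkbid, in neutrophils (21.6% of all genes fell), classical monocytes (28.1%) and nonclassical monocytes (30.2%).

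**Figure D1:**
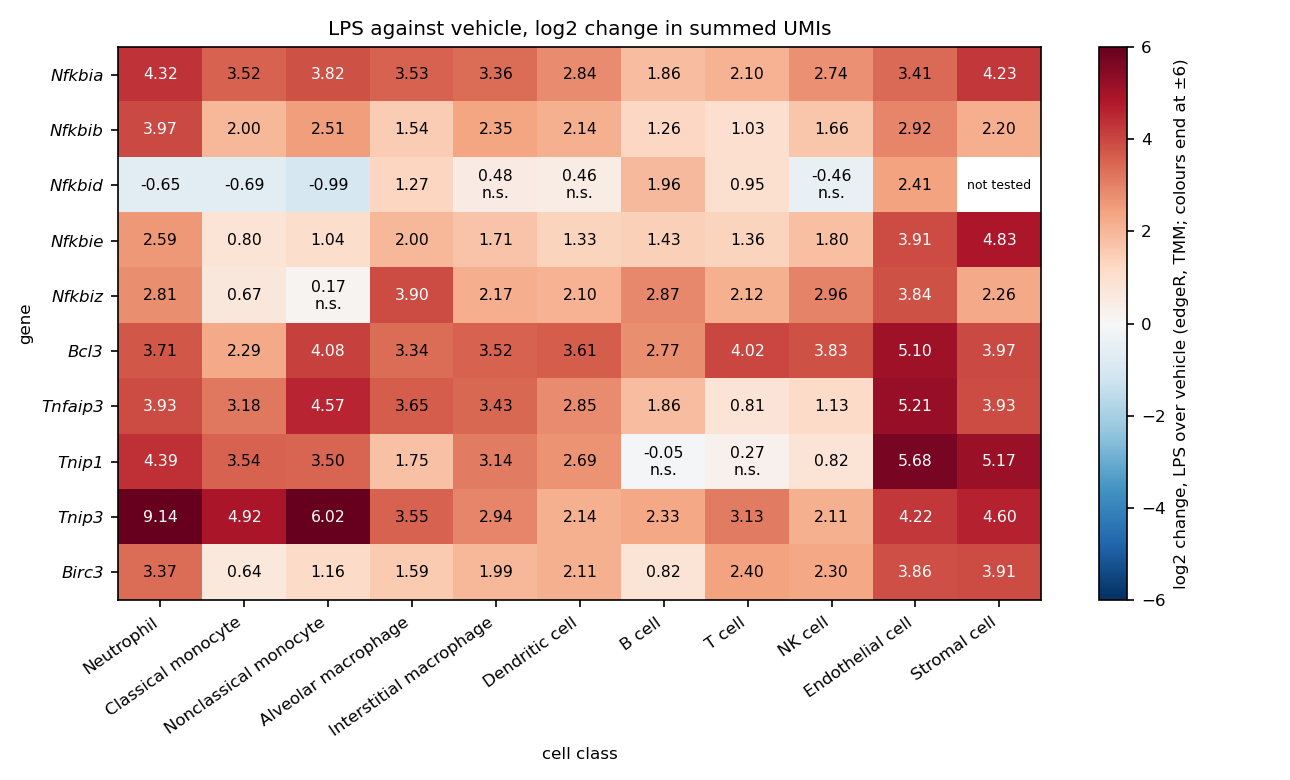
Change after LPS (log2, LPS minus vehicle, averaged over genotypes) of the 10 genes in the 11 classes, from 6 libraries; n.s. marks values that did not pass an adjusted p of 0.05 in edgeR. The endothelial column holds the strongest rises of Tnip1, Tnfaip3 and Bcl3, and the Nfkbid row holds all 3 falls.

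Nfkbia, the classical IkB that resets NF-kB, rose in all 11 classes, by 1.86 (B cells) to 4.32 (neutrophils) on the log2 scale, with a median of 3.41. In neutrophils it stood at 215 and 442 CPM in the WT and KO vehicle libraries, 7979 and 8090 in the WT LPS libraries and 4532 and 4878 in the KO LPS libraries. All 4 LPS libraries lay far above the vehicle libraries, the WT ones highest, and the change was 4.32 ± 0.06 (log2 ± SE, adjusted p = 8.6e-22, edgeR). Alveolar macrophages, the resident phagocytes of the air spaces, had 90.6 and 87.8 CPM with vehicle, 1258 and 1167 in WT LPS and 868 and 887 in KO LPS libraries, a rise of 3.53 ± 0.06. B cells started from 285 and 245 CPM and reached 1033 and 1069 in WT and 904 and 860 in KO, a rise of 1.86 ± 0.08, so that no library overlapped but the step was the smallest of the 11. Stromal cells, at 144 and 148 CPM with vehicle and 2230 to 3262 with LPS, rose by 4.23 ± 0.16.

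Nfkbib, which encodes IkB-beta, the form usually seen as slow to respond, also rose in all 11 classes, with a median of 2.14. Its largest rise was in neutrophils, from 8.17 and 6.85 CPM with vehicle to 151 and 145 in WT and 94.1 and 93.0 in KO LPS libraries (3.97 ± 0.13, adjusted p = 6.6e-16, edgeR). T cells had the smallest, from 23.0 and 20.5 CPM to 59.6 and 54.5 in WT and 31.3 and 39.4 in KO (1.03 ± 0.14). In alveolar macrophages the levels went from 21.4 and 20.4 CPM to 46.1 to 79.8, with no overlap. Nfkbie, the gene of IkB-epsilon, rose in all 11 classes with a median of 1.71. It was steepest outside the leukocytes: endothelial cells went from 3.85 and 4.21 CPM to 68.3 and 70.3 in WT and 51.3 and 57.0 in KO libraries, a rise of 3.91 ± 0.20 (adjusted p = 1.2e-10, edgeR). Stromal cells had only 2 vehicle UMIs of Nfkbie against 143 with LPS, a ratio of 33.1 with an exact counting interval of 9.01 to 276. Classical monocytes moved least, from 27.8 CPM in both vehicle libraries to 45.9 to 51.8 in the 4 LPS libraries (0.80 ± 0.11). Without cluster 27 that rise was 1.43, above the 1.04 of nonclassical monocytes.

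The nuclear IkBs went separate ways. Nfkbiz, whose product IkB-zeta helps NF-kB to switch on late genes such as those of antimicrobial proteins, rose in 10 of 11 classes. In neutrophils it stood at 107 and 239 CPM with vehicle, 1310 and 1327 in WT LPS and 934 and 970 in KO LPS libraries, a rise of 2.81 ± 0.06 (adjusted p = 1.6e-19, edgeR). Alveolar macrophages had almost none with vehicle, 6.49 and 7.64 CPM, and 100.2 to 110 with LPS, so all 4 LPS libraries lay close together and the rise of 3.90 ± 0.08 was the largest of any class. Nonclassical monocytes, with nearly all vehicle cells in cluster 29 and the LPS cells in cluster 19, whose name was less certain, were the exception. They had 168 and 158 CPM with vehicle, 198 and 257 in WT and 144 and 155 in KO LPS libraries, so the groups overlapped and the change was 0.17 ± 0.11 (adjusted p = 0.17, edgeR). In classical monocytes the KO vehicle library (115 CPM) lay above both KO LPS libraries (88.3 and 95.4), while WT went from 58.8 to 184 and 189.

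Bcl3, which binds the NF-kB subunits without a transactivation domain, rose in all 11 classes by 2.29 (classical monocytes) to 5.10 (endothelial cells). Endothelial cells had 8.46 and 8.12 CPM with vehicle, 405 and 385 in WT and 215 and 198 in KO LPS libraries, with no overlap (adjusted p = 5.6e-14, edgeR). In T cells, where the levels were 4.69 and 8.79 CPM with vehicle, 130 and 125 in WT and 93.9 and 74.4 in KO, the rise was 4.02 ± 0.15. Alveolar macrophages went from 4.55 and 7.24 CPM to 93.2 and 84.6 in WT, but to 36.3 and 40.8 in KO.

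Nfkbid, the gene of IkB-NS, was the only one to fall over both genotypes, and the only one whose strongest rise among leukocytes was in B cells. B cells had 21.7 and 23.9 CPM with vehicle, 92.8 and 96.1 in WT LPS and 90.4 and 75.3 in KO LPS libraries, a rise of 1.96 ± 0.11 (adjusted p = 2.3e-13, edgeR). Neutrophils went the other way, from 50.8 and 65.4 CPM to 35.3 and 36.5 in WT and 36.6 and 38.7 in KO, with all 4 LPS libraries below both vehicle libraries (-0.65 ± 0.10, adjusted p = 7.5e-06, edgeR). The same order held in classical monocytes, at 22.3 and 16.1 CPM against 10.5 to 13.8 (-0.69 ± 0.19). In nonclassical monocytes 24.7 and 24.1 CPM stood against 7.12 to 15.6 (-0.99 ± 0.25). That value compares cluster 29 with the less certain cluster 19, and it changed sign when cells were named singly. Nfkbid did not pass the threshold in dendritic cells (0.46), interstitial macrophages (0.48) or NK cells (-0.46), and had too few UMIs to be tested in stromal cells, with 2 vehicle and 15 LPS UMIs. Neutrophils have little RNA and their scaling factors differed widely, 2.15 and 1.96 in the vehicle and 0.617 to 0.796 in the LPS libraries. With plain CPM, which moved the median of all genes there from 0.34 to -1.20, the neutrophil values were -2.21 for Nfkbid, 1.04 for Nfkbie, 2.37 for Tnfaip3 and 2.76 for Nfkbia.

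Tnfaip3, encoding A20, rose in all 11 classes, by 0.81 (T cells) to 5.21 (endothelial cells), median 3.43. Neutrophils had 35.6 and 78.0 CPM with vehicle, 1041 and 1042 in WT LPS and 618 and 614 in KO LPS libraries (3.93 ± 0.07, adjusted p = 2.4e-20, edgeR). Endothelial cells had 10.8 and 9.02 CPM with vehicle, 492 and 456 in WT and 296 and 267 in KO, with the WT libraries highest and no overlap (5.21 ± 0.14). T cells already held 91.7 and 162 CPM with vehicle and reached 232 and 212 in WT and 220 and 184 in KO, and NK cells went from 105 and 169 CPM to 318 and 305 in WT and 279 and 260 in KO (1.13 ± 0.11). T and NK cells thus had the smallest rises, with no overlap between vehicle and LPS libraries. In each vehicle library their level was above that of the other 9 classes, B cells (23.8 and 37.1 CPM) included.

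The A20 partners split by cell type. Tnip1, the gene of ABIN1, rose in 9 of 11 classes and most in endothelial cells, from 17.3 and 17.7 CPM to 1193 and 1128 in WT and 700 and 693 in KO libraries, a change of 5.68 ± 0.11 (adjusted p = 2.5e-15, edgeR). Stromal cells followed, from 16.4 and 7.13 CPM to 328 to 517 (5.17 ± 0.27), and neutrophils, from 20.4 and 20.0 to 341 to 518 (4.39 ± 0.09). Lymphocytes differed: in B cells the LPS libraries (26.9 to 41.8 CPM) overlapped the vehicle libraries (39.1 and 31.2), with a change of -0.05 ± 0.13 (adjusted p = 0.75, edgeR), and in T cells the change was 0.27 ± 0.12 (adjusted p = 0.052, edgeR).

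Tnip3, the gene of ABIN3, was highest in monocytes, dendritic cells and interstitial macrophages. In nonclassical monocytes it went from 13.2 and 8.04 CPM to 658 and 673 in WT and 654 and 711 in KO libraries (6.02 ± 0.13, adjusted p = 3.7e-18, edgeR), and the genotypes overlapped there. That change compares cluster 29 with cluster 19, whose name was less certain. Classical monocytes went from 13 and 6.72 CPM to 358 and 360 in WT and 224 and 223 in KO (4.92 ± 0.10). Dendritic cells held 177 and 158 CPM already with vehicle and 590 to 861 with LPS (2.14 ± 0.09), where vehicle cells were mostly of cluster 40 and LPS cells of cluster 26. Interstitial macrophages had 38.6 and 44.6 CPM with vehicle, 332 and 300.2 in WT and 303 and 339 in KO LPS libraries (2.94 ± 0.13). Vehicle neutrophils had a single UMI of Tnip3 against 2898 with LPS, a ratio of 165 with a counting interval of 29.6 to 6531, and endothelial and stromal cells had 3 and 2 vehicle UMIs, with ratios of 19.3 (6.39 to 95.6) and 11.8 (3.11 to 100.2). Lymphocytes stayed low, at 1.58 to 6.40 CPM in B cells and 4.30 to 16.1 in T cells with LPS.

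Birc3, the cIAP2 gene, rose in all 11 classes by 0.64 (classical monocytes, 0.98 without cluster 27) to 3.91 (stromal cells). Neutrophils went from 39.7 and 63.8 CPM to 612 and 600 in WT and 455 and 438 in KO libraries (3.37 ± 0.07, adjusted p = 4.4e-19, edgeR). B cells had 154 and 126 CPM with vehicle, more than any other class. With LPS they had 213 and 239 in WT and 289 and 245 in KO libraries (0.82 ± 0.09). Here the KO libraries were the higher ones, but that difference did not pass the threshold (0.25 ± 0.10, adjusted p = 0.059, edgeR). T cells had 23.9 and 28.3 CPM with vehicle and 131 to 149 with LPS (2.40 ± 0.11). Within WT alone 99 tests of the set were higher and 2 lower (25.2% and 22.3% over all genes and classes), and within KO alone 95 and 3 (21.8% and 17.1%), each resting on 1 vehicle library. The lower ones were Nfkbid in neutrophils of both genotypes, in WT classical monocytes and in KO nonclassical monocytes, and Nfkbiz in KO classical monocytes (-0.33 ± 0.09, adjusted p = 0.0086, edgeR).

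**Figure D2:**
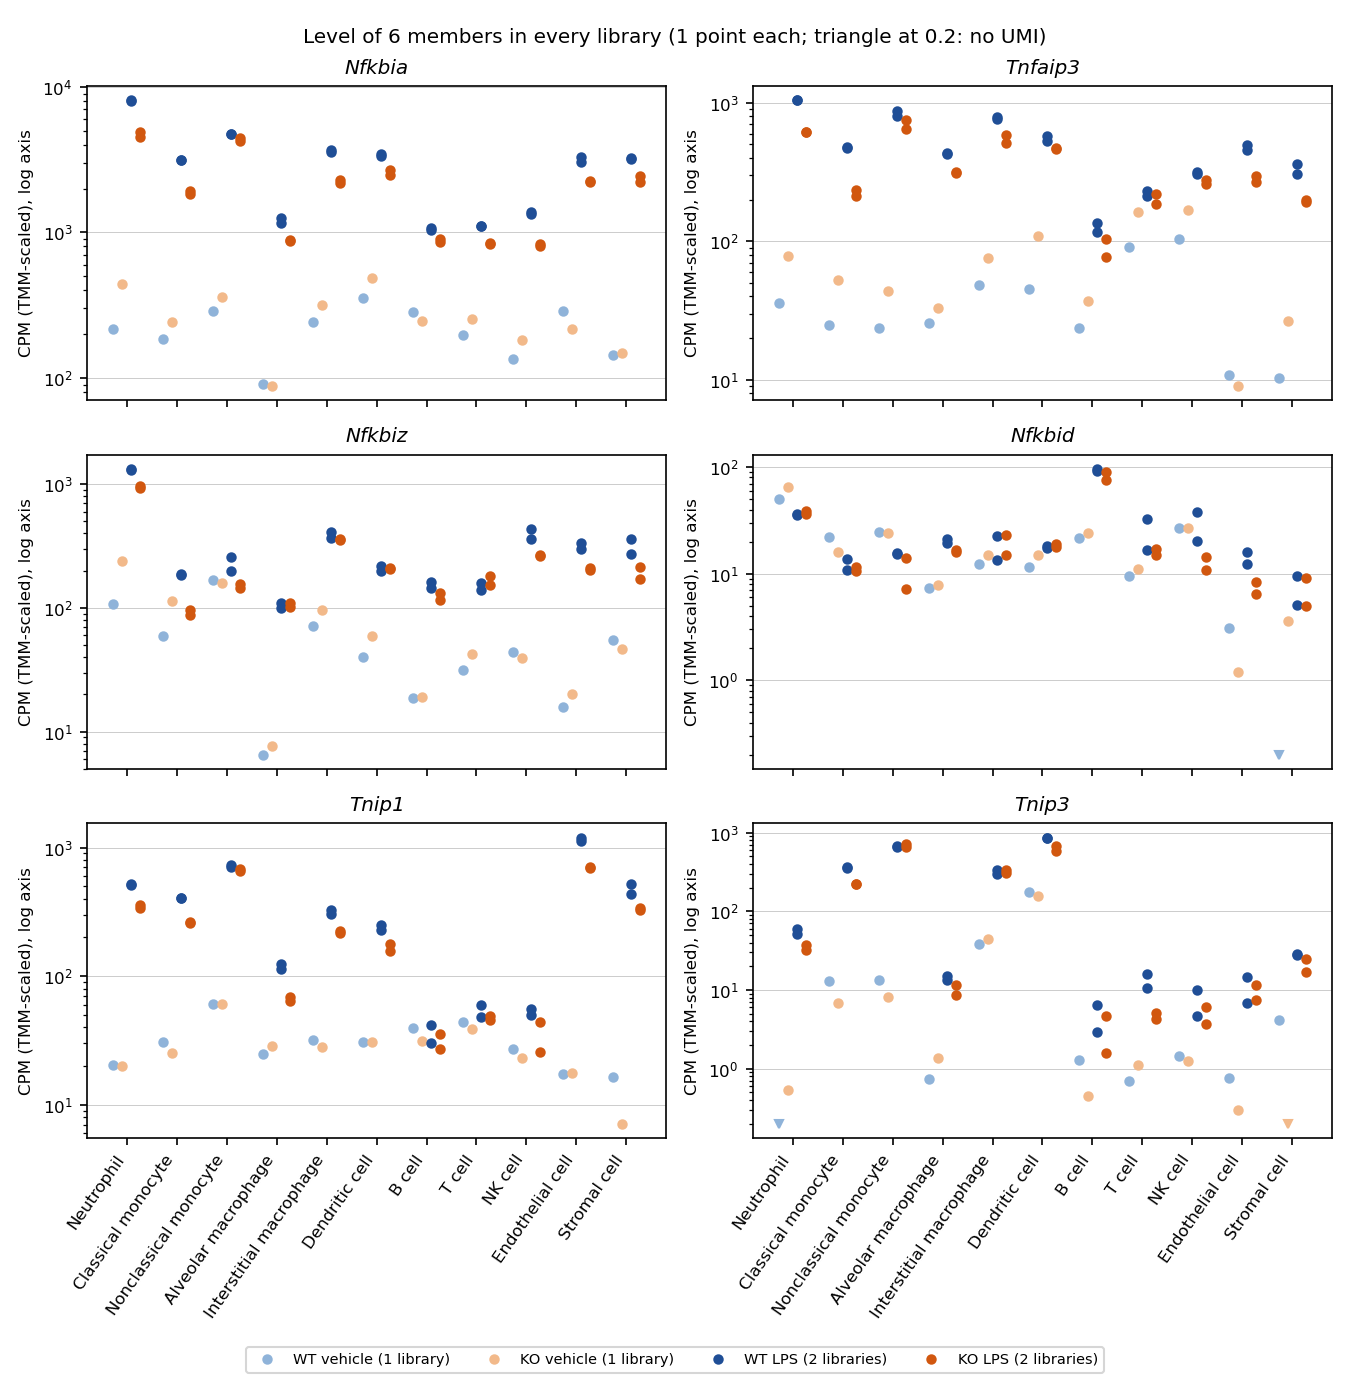
TMM-scaled CPM (log axis) of Nfkbia, Tnfaip3, Nfkbiz, Nfkbid, Tnip1 and Tnip3 in each of the 6 libraries, by class; points are single libraries and a triangle at 0.2 marks a library with no UMI. LPS points lie above vehicle points in most columns, except for Nfkbid in neutrophils, NK cells, interstitial macrophages and both monocyte classes, Nfkbiz in both monocyte classes and Tnip1 in B and NK cells.

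The classes differed in how far the genes rose, by a test of the difference within libraries. Neutrophils rose more than alveolar macrophages in Tnip3 by 3.79, Tnip1 by 2.64, Nfkbib by 2.44, Birc3 by 1.75 and Nfkbia by 0.77, and less in Nfkbid (-1.93) and Nfkbiz (-1.14), so 7 of 10 genes differed where 32.3% of all genes did (edgeR, adjusted p from 1.0e-07 to 0.023). The Tnip3 value (SE 0.83) rests on 1 vehicle UMI in neutrophils. With plain CPM the order of Nfkbia, Bcl3 and Tnfaip3 between these classes turned, to -0.63, -1.08 and -1.16. Classical monocytes rose more than alveolar macrophages in Tnip1 (1.81), Tnip3 (1.45) and Nfkbib (0.44), and less in Nfkbiz (-3.27), Nfkbid (-1.96), Nfkbie (-1.24), Bcl3 (-1.08) and Birc3 (-0.96), 8 of 10 against 32.4% of all genes. Without cluster 27 the values of Nfkbie (-0.60, adjusted p = 0.15, edgeR), Bcl3 (-0.59) and Birc3 (-0.62) were smaller, and Nfkbie no longer passed. B cells rose more than T cells in Tnfaip3 (1.06), Nfkbid (1.02) and Nfkbiz (0.77) and less in Birc3 (-1.57) and Bcl3 (-1.14), 5 of 10 against 27.2%.

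Levels under LPS also had an order, described here over the 4 LPS libraries without a test and only approximately, since scaling was done within classes. Nfkbia was highest in neutrophils (4532 to 8090 CPM), whose range overlapped that of nonclassical monocytes (4256 to 4777), and lowest in B cells (860 to 1069). Nfkbiz stood apart in neutrophils, at 934 to 1327 CPM against 356 to 409 in interstitial macrophages, the next class, and so did Birc3, at 438 to 612 against 216 to 312 in dendritic cells. Nfkbid was highest in B cells, at 75.3 to 96.1 CPM, clear of neutrophils at 35.3 to 38.7. Tnip1 was highest in endothelial cells (693 to 1193 CPM), overlapping nonclassical monocytes (656 to 731), and Tnip3 in dendritic cells (590 to 861), again overlapping nonclassical monocytes (654 to 711). With plain CPM, Bcl3 and Tnfaip3 were highest in nonclassical monocytes and not in neutrophils.

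Neutrophils made up 39.4% to 51.7% of the named cells of an LPS library and held 71.3% to 76.6% of all Nfkbiz UMIs and 52.7% to 60.9% of all Nfkbia UMIs. For Tnip3 the share in neutrophils was 8.8% to 10.9%, and classical monocytes held 40.9% to 50.7%. The dendritic cells' share of Tnip3 UMIs was 65.0% and 68.8% in the vehicle libraries and 19.1% to 23.0% with LPS. Counted per cell after thinning each cell to 2000 UMIs, Nfkbia was seen in 40.5% and 59.3% of vehicle neutrophils, 98.3% and 98.5% of WT LPS and 96.0% and 96.6% of KO LPS neutrophils. Thinning left out 493 shallower vehicle neutrophils in WT and 146 in KO, keeping 42 and 290, and 114 to 262 per LPS library. Without thinning the neutrophil shares were 33.5% and 56.0% with vehicle and 98.9% to 99.8% with LPS, at median depths of 1474 and 2194 against 3536 to 5342 UMIs. Alveolar macrophages went from 15.9% and 16.0% to 84.0% and 84.3% in WT and 67.3% and 71.1% in KO. Tnfaip3 was seen in 5.78% and 6.90% of vehicle alveolar macrophages, 47.9% and 47.4% in WT LPS and 35.9% and 36.4% in KO LPS libraries. The unthinned shares in these macrophages, of which 3 to 21 cells per library were left out, were 43.3% and 54.4% with vehicle and 95.4% to 99.3% with LPS for Nfkbia, and 17.2% and 28.6% against 71.6% to 89.2% for Tnfaip3.

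RNA freed from neutrophils can enter droplets of other cells, so a bound was set by the neutrophil genes S100a8 and S100a9 in each class. It took the average make-up of a library's neutrophils, so RNA from neutrophils richer in a gene could exceed it. The summed neutrophil markers in alveolar macrophages were 98.7 to 104 CPM with vehicle, 2068 to 2721 in WT and 809 to 1130 in KO LPS libraries, and in endothelial cells 6677 to 12691 in WT and 2952 to 3749 in KO. If all S100a8 and S100a9 UMIs of a class were neutrophil RNA of that make-up, it could account for at most 34.0% of a gene's UMIs (Nfkbiz in interstitial macrophages). This covers the 100 pairs of gene and class outside neutrophils, in any LPS library. For Nfkbia the bound ran from 0.587% to 23.7%. Vehicle interstitial macrophages also held B cell markers, all 8 of 8 detected, at a sum of 1794 to 2344 CPM against 100.2 to 384 with LPS, and T cell markers, 7 of 7, at 991 to 1091 against 53.8 to 231. In dendritic cells the sums were 741 to 916 with vehicle and 92.0 to 186 with LPS for B cell markers, and 667 to 966 and 45.0 to 123 for T cell markers. Their part in the values of both classes was not tested.

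Within LPS neutrophils the set varied with cluster. These clusters were built without the 10 genes and the pathway lists. Nfkbia was lowest in cluster 33, led by the granule genes Ltf and Camp of immature cells, at 1246 and 1249 plain CPM in WT and 1265 and 1059 in KO. It was 3206 and 3286 in WT and 3032 and 3188 in KO in cluster 6, led by Retnlg, and highest in cluster 4, led by Csta3 and the chemokine genes Ccl4 and Ccl3, at 7748 and 7813 in WT and 6555 and 6589 in KO. Tnfaip3 ran the same way, from 138 to 154 CPM in cluster 33 to 904 to 990 in cluster 4. Nfkbid in cluster 8, led by Asprv1 and Ifitm1, was 26.6 and 15.8 CPM in WT and 40.1 and 40.3 in KO. The cells were spread unlike between genotypes: cluster 4 held 1039 and 1018 WT but 337 and 182 KO cells, and cluster 20, led by Mmp8, 53 and 42 WT but 555 and 393 KO cells. The Nfkbia levels of the genotypes overlapped in clusters 33 and 13, and KO was higher in cluster 20 (1747 and 1710 against 1568 and 1631). In clusters 6, 8, 10, 9, 0 and 4 both KO libraries lay below both WT libraries in Nfkbia. Other genes of the set did not all share that order. In cluster 0 Tnfaip3 was 844 and 856 in WT and 890 and 861 in KO. Birc3 there was 440 and 431 in WT and 474 and 444 in KO. Bcl3 there was lower in KO, at 221 and 227 against 314 and 297. In cluster 6 Nfkbiz was 590 and 613 in WT and 669 and 642 in KO.

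**Figure D3:**
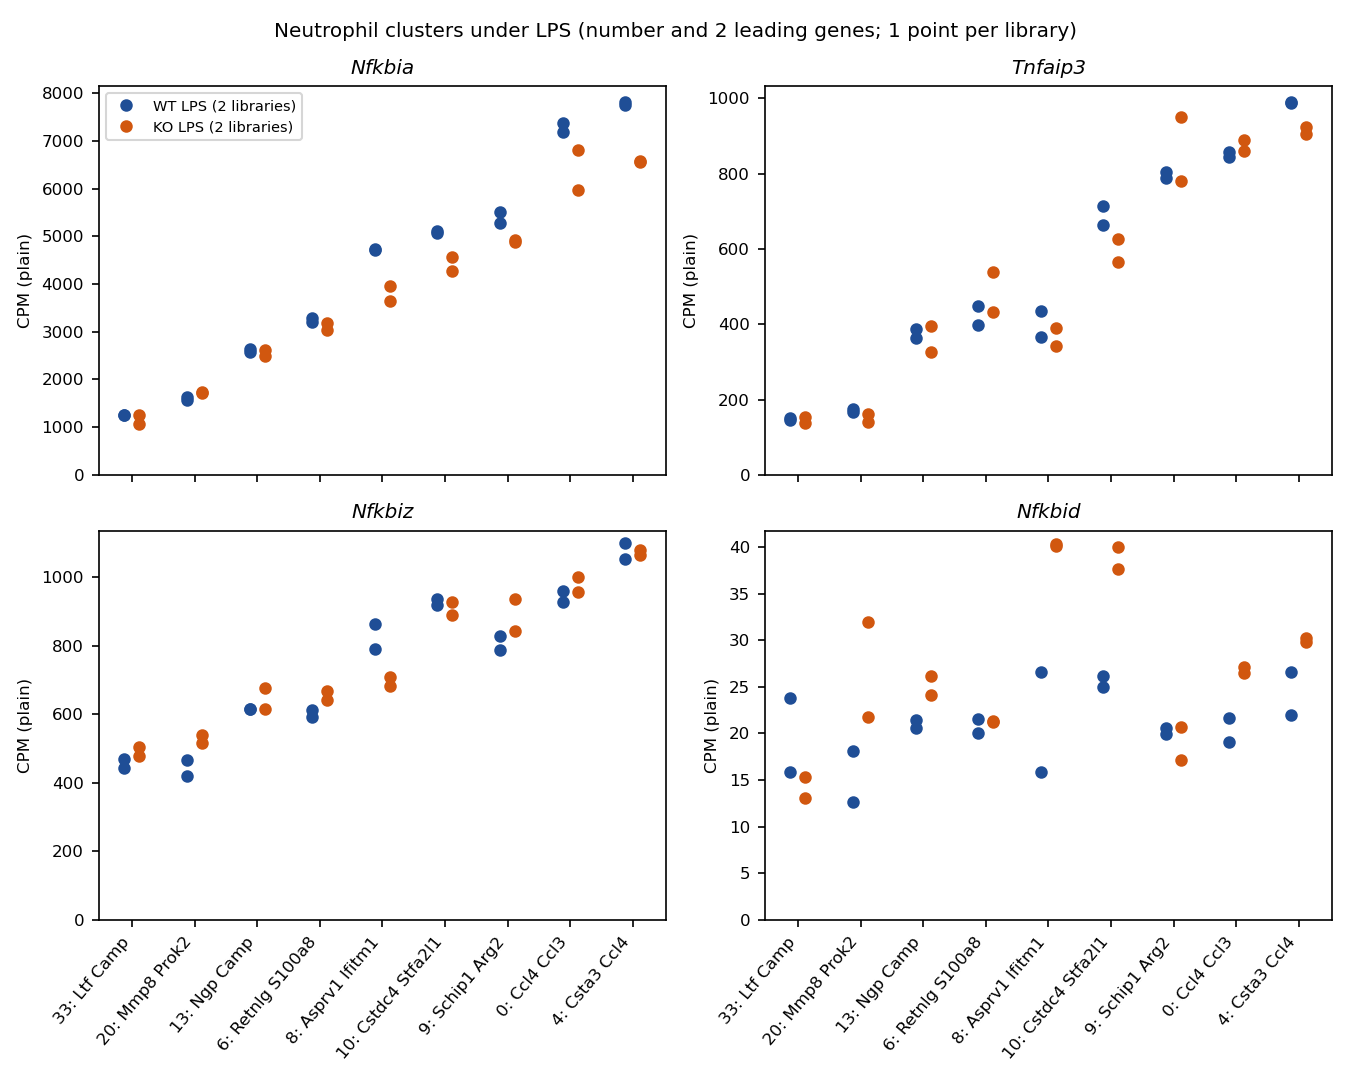
Plain CPM of Nfkbia, Tnfaip3, Nfkbiz and Nfkbid in the neutrophil clusters of the 4 LPS libraries, ordered by Nfkbia; points are single libraries. Nfkbia climbs from 1246 CPM in the Ltf and Camp cluster to 7813 CPM in the Csta3 cluster in WT.

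Under LPS the KO libraries had lower levels of the set than the WT libraries. Of 109 tests 61 were lower and 0 higher (edgeR), against 10.2% and 8.57% over all genes and classes by the same test. Without adjustment 76 had a p under 0.05 in edgeR. DESeq2, which gave no adjusted p for some of the tests, called 39 lower and 0 higher. Neither of these counts has its own share over all genes here. Both KO libraries lay below both WT libraries in 87 of 110 pairs, while 27.1% of all pairs of a gene and a class did. By class, 9 of 10 genes were lower in alveolar macrophages (18.7% of all genes tested) and in neutrophils (16.8%), 8 in classical monocytes (16.9%), 7 in endothelial cells (10.6%), 6 in dendritic cells (5.1%) and in interstitial macrophages (5.64%), 5 in B cells (17.5%) and in T cells (5.51%), 3 in nonclassical monocytes (3.6%) and in NK cells (3.17%) and 0 of 9 in stromal cells (0.411%). By gene, Bcl3 was lower in 10 classes, Nfkbia and Nfkbib in 9, Nfkbiz, Tnfaip3, Tnip1 and Birc3 in 6, Tnip3 in 5, Nfkbie in 3 and Nfkbid in 1.

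The largest of these differences for A20 was in classical monocytes, where Tnfaip3 stood at 471 and 480 CPM in WT and 233 and 214 in KO (-1.09 ± 0.05, adjusted p = 3.6e-09, edgeR). Bcl3 in alveolar macrophages differed by -1.22 ± 0.07 (adjusted p = 1.8e-09, edgeR), and Nfkbia in neutrophils by -0.77 ± 0.05 (adjusted p = 2.1e-10, edgeR). Nfkbib in B cells went from 110 and 124 CPM in WT to 47.2 and 48.7 in KO, -1.29 ± 0.11 (adjusted p = 2.0e-08, edgeR). Genes without a difference past the threshold included Tnip3 in nonclassical monocytes (0.03 ± 0.08), Nfkbiz in alveolar macrophages (0.00 ± 0.06) and Tnip1 in B cells (-0.16 ± 0.17). In neutrophils, where WT and KO scaling factors differed (0.617 and 0.622 against 0.796 and 0.778), plain CPM gave -0.43 for Nfkbia, -0.41 for Tnfaip3 and -0.29 for Bcl3, left Birc3 at -0.09 (adjusted p = 0.062, edgeR) and called Nfkbid higher at 0.41. Neutrophil transcripts in other classes were also fewer in KO LPS libraries, with summed markers of 3157 to 3462 CPM in KO and 6463 to 7995 in WT classical monocytes beside the alveolar macrophage and endothelial values above. Their part in the genotype difference, and that of the mitochondrial share, was not tested.

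KO and WT LPS cells of a class also sat in different clusters. Cluster 2, which held most vehicle alveolar macrophages, had 446 and 245 KO but 13 and 18 WT LPS cells, while cluster 3 had 861 and 827 WT and 471 and 430 KO cells. Classical monocyte cluster 21 had 545 and 388 KO but 26 and 45 WT cells, endothelial cluster 47 had 146 and 101 KO and 0 WT cells, and B cell cluster 15 had 625 and 477 KO and 158 and 170 WT cells. Within the clusters that both genotypes filled, several genes were ordered otherwise, described here without a test. In cluster 3 Nfkbia stood at 1141 and 1069 plain CPM in WT and 1275 and 1214 in KO, and Tnfaip3 at 406 and 418 in WT and 566 and 501 in KO. There both KO libraries lay above both WT libraries, whereas Bcl3 was lower in KO, at 61.0 and 60.9 against 83.7 and 81.7. In classical monocyte cluster 7 Nfkbia was 3624 and 3632 in WT and 3831 and 3851 in KO, and Tnfaip3 was 581 and 601 in WT and 557 and 471 in KO. In endothelial cluster 25 Tnfaip3 of the genotypes overlapped, at 402 and 367 in WT and 371 and 372 in KO, and Bcl3 was lower in KO, at 249 and 230 against 331 and 311. The 8 genes that were lower in KO classical monocytes were also lower in cluster 27, where Tnfaip3 was 239 and 238 in WT and 128 and 116 in KO. Without cluster 27 the class gave -1.32 for Tnfaip3.

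These differences moved with the sex marks. When cells of the KO vehicle and LPS libraries and of the WT LPS libraries were restricted to those with Xist UMIs and no Y-linked UMI, 99 tests in 10 classes gave 13 lower and 5 higher. With fewer cells, calls among all genes also became fewer. The share of all genes called lower went from 16.9% to 3.14% in classical monocytes, 18.7% to 8.29% in alveolar macrophages and 17.5% to 15.6% in B cells. Neutrophils had 8 genes lower (9.86% of all genes), with 1150 and 1063 WT and 467 and 272 KO cells: Nfkbia by -0.61 ± 0.08 (adjusted p = 1.6e-06, edgeR), Bcl3 by -0.57, Tnfaip3 by -0.52, Birc3 by -0.46, Nfkbie by -0.45, Tnip1 by -0.43, Nfkbib by -0.38 and Nfkbiz by -0.36. In alveolar macrophages only Bcl3 was still lower (-0.40; 8.29% of all genes), while Nfkbia (0.19), Tnfaip3 (0.41) and Nfkbiz (0.65) were higher (8.75%). B cells had Nfkbib (-1.23) and Tnfaip3 (-0.38) lower (15.6%). In classical monocytes Nfkbiz was lower (-0.40; 3.14%) and Tnip3 higher (0.48; 4.05%), and in T cells Nfkbib was lower (-0.93; 2.33%) and Nfkbiz higher (0.48; 2.73%). No gene of the set passed in dendritic, endothelial or NK cells, interstitial macrophages or nonclassical monocytes. Few of all genes were lower there: 72 of 10142, 220 of 10927, 18 of 7925, 47 of 10505 and 111 of 8270, in that order. Those higher were 113, 263, 20, 45 and 141. The set's median difference in these classes was 0.038, -0.0044, -0.38, -0.21 and -0.12. KO LPS libraries kept 90 and 71 dendritic cells and 48 and 36 interstitial macrophages. Over the 10 classes 15 values changed sign among those that passed the threshold in all cells or in Xist-marked cells.

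**Figure D4:**
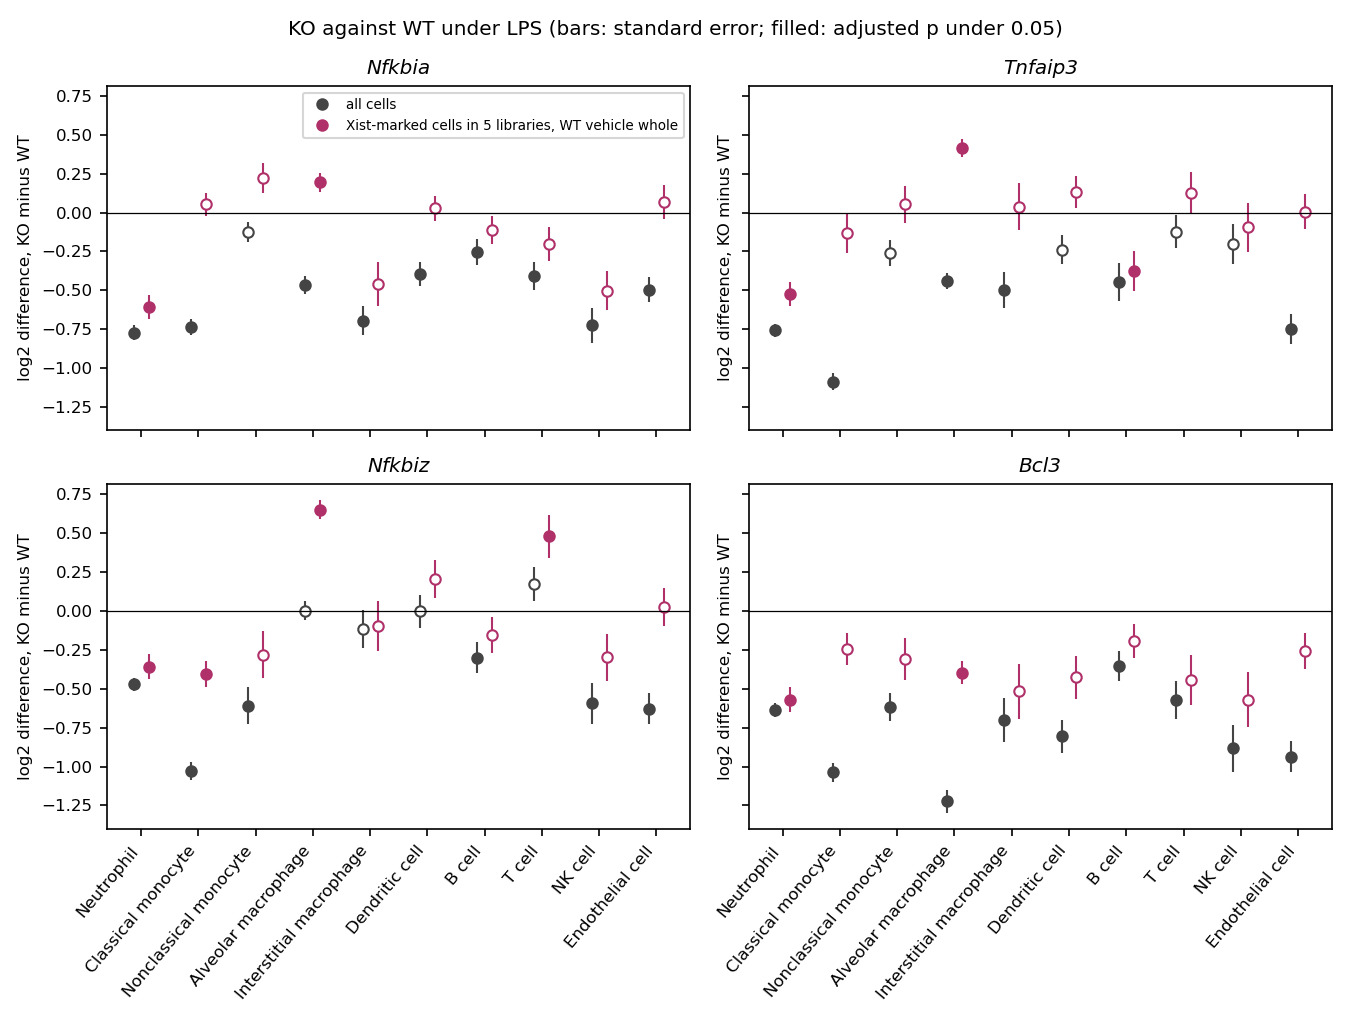
KO minus WT under LPS (log2 ± SE) for Nfkbia, Tnfaip3, Nfkbiz and Bcl3 in 10 classes, from all cells and from Xist-marked cells; filled points passed an adjusted p of 0.05 in edgeR. Most points from all cells lie below 0, and those from Xist-marked cells lie nearer to 0 or above it, with all 4 neutrophil values still below 0 and called.

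Inside each KO LPS library the marked cells could be compared directly, in the 7 classes with at least 30 cells of each mark. In alveolar macrophages Nfkbia stood at 447 and 416 plain CPM in Y-marked and 1320 and 1215 in Xist-marked KO cells, against 1166 and 1100 in the Xist-marked WT LPS cells. Tnfaip3 was 90.2 and 85.4 in Y-marked, 551 and 494 in Xist-marked KO and 395 and 408 in WT cells. Bcl3 kept a difference from WT, at 12.2 and 9.49 in Y-marked, 62.6 and 61.3 in Xist-marked KO and 87.0 and 79.7 in WT cells. Y-marked and Xist-marked KO cells did not overlap in these genes, and the Xist-marked KO cells lay above the WT cells in Nfkbia and Tnfaip3 and below them in Bcl3.

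Y-marked cells were lower than Xist-marked cells in both libraries in 52 of 70 pairs of gene and class and higher in both in 10, against 26.6% and 40.9% of all pairs. This held for 10 of 10 genes in alveolar macrophages (24.5% of all genes) and endothelial cells (17.9%), 8 in classical (31%) and nonclassical monocytes (22.8%), 7 in B cells (29.6%) and 6 in T cells (27.9%). In neutrophils it held for 3 (34.6%), and 5 were higher in Y-marked cells (34.5%), such as Nfkbid at 34.7 and 38.0 against 22.2 and 25.1 CPM. Endothelial Tnfaip3 was 121 and 79.7 CPM in Y-marked and 376 and 391 in Xist-marked KO cells, and Tnip3 in classical monocytes 90.7 and 104 against 483 and 378. As WT LPS libraries held almost no Y-marked cells, the genotypes cannot be compared in those cells, and there genotype, sex mark and animal cannot be told apart.

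**Figure D5:**
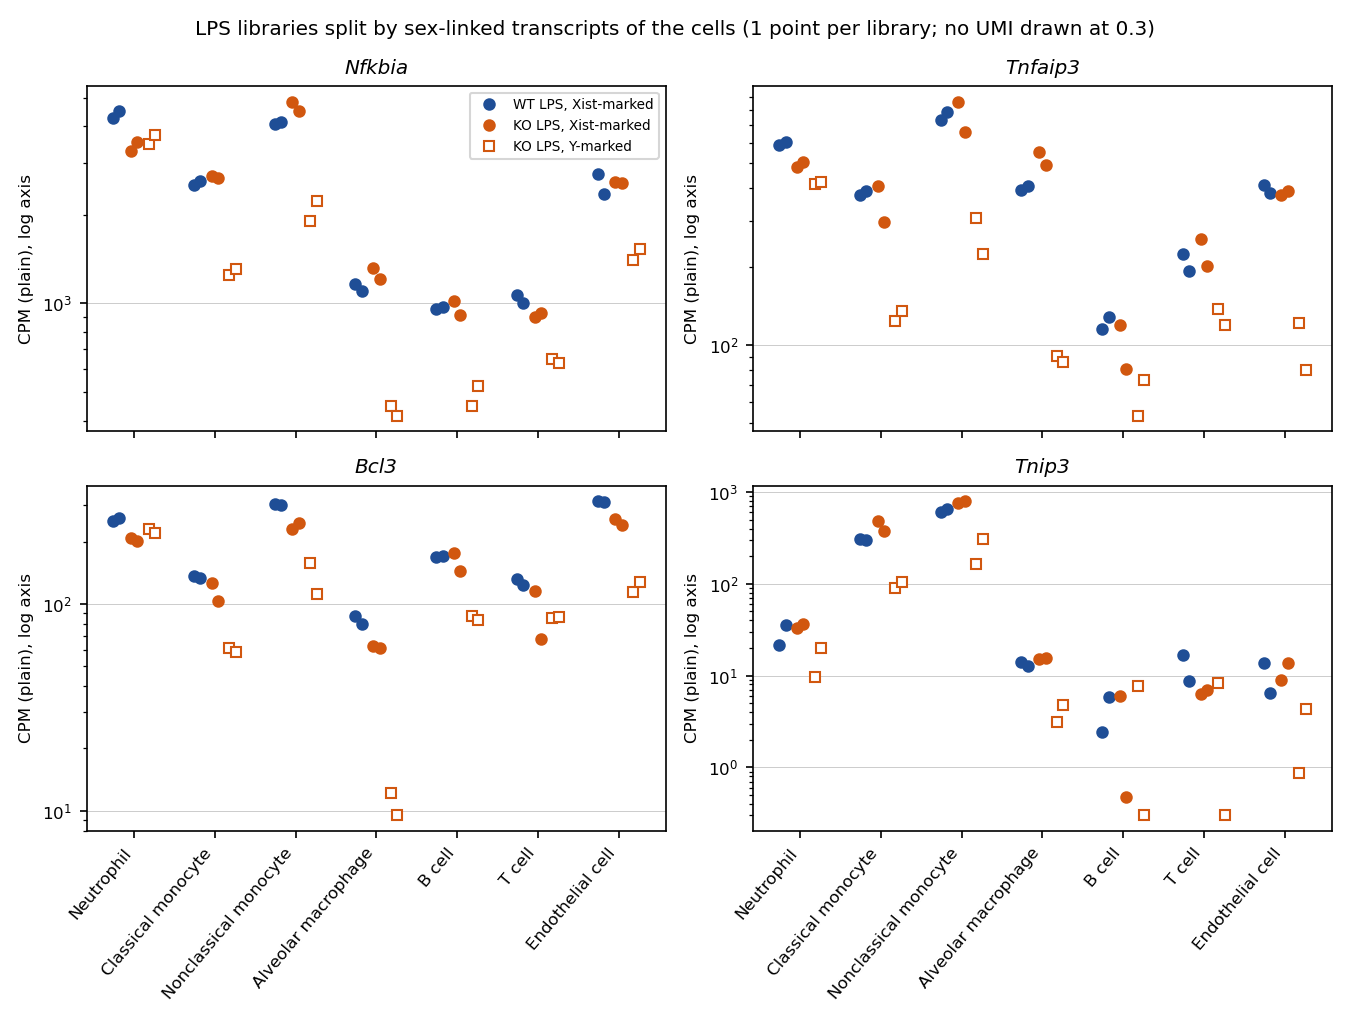
Plain CPM of Nfkbia, Tnfaip3, Bcl3 and Tnip3 in Xist-marked cells of the WT LPS libraries and in Xist-marked and Y-marked cells of the KO LPS libraries, in 7 classes; points are single libraries. In alveolar macrophages the Y-marked points lie below both other sets, while in neutrophils Nfkbia spans 3282 to 4503 CPM over the 3 sets.

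The response to LPS, as a difference between genotypes, was smaller in KO for 34 of 109 tests and larger for 1 (edgeR). By the same test 3.13% and 2.71% were so over all genes and classes. Without adjustment 54 had a p under 0.05 in edgeR. DESeq2, which gave no adjusted p for some of the tests, called 22 and 0. Neither of these counts has its own share over all genes here. The counts that follow are of the edgeR calls. By class the smaller responses were 7 in alveolar macrophages (6.85% of all genes), 6 in classical monocytes (3.2%), 5 in neutrophils (4.68%), 3 in dendritic cells (0.77%), NK cells (0.531%) and T cells (3.01%), 2 in B cells (8.95%), interstitial macrophages (0.862%) and nonclassical monocytes (1.66%), 1 in endothelial cells (1.37%) and 0 in stromal cells (0.0514%). The larger response was that of Birc3 in B cells (0.53; 7.16% of all genes). Tnfaip3 was the gene most often involved, in 9 of 11 classes, then Nfkbia in 7, Bcl3 in 6 and Nfkbib in 5, while Nfkbid and Tnip3 were in none. In some of those classes Tnfaip3 under LPS did not itself differ between genotypes past the threshold. These were dendritic, NK and T cells and nonclassical monocytes (adjusted p = 0.13, 0.43, 0.56 and 0.076, edgeR). Vehicle levels also enter this test and are compared in the next paragraph. In neutrophils the difference was -1.81 for Nfkbia, -1.89 for Tnfaip3, -1.82 for Bcl3, -1.63 for Nfkbiz and -1.12 for Birc3. With Xist-marked cells in the KO and WT LPS libraries, 9 were smaller. That count comes from fewer cells and is given without the share over all genes, so the fall from 34 is not read further. This test rests on 1 vehicle library per genotype, of opposite sex mark.

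The vehicle libraries also differed. There, with 1 library a side and counting error only, the ratio of KO to WT had an exact 95% interval above 1 in 32 of 105 pairs with more than 3 UMIs and below 1 in 4, against 6.67% and 6.31% of all such pairs of a gene and a class. Tnfaip3 was above in 9 of 11 classes, for example in dendritic cells at 110 against 45.3 CPM (ratio 2.42, 1.92 to 3.06), neutrophils at 78.0 against 35.6 (2.19, 1.62 to 3.0) and T cells at 162 against 91.7 (1.77, 1.57 to 1.99). Nfkbia was above in 7 classes, most in neutrophils (2.05, 1.82 to 2.33), and below in endothelial cells (0.75, 0.67 to 0.83) and B cells (0.86, 0.80 to 0.92). The WT vehicle cells carried Y marks and the KO vehicle cells Xist marks, so genotype, sex mark and library cannot be told apart here.

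Across the 66 sums of library and class, the genes most like each member were found by Pearson correlation of log2(CPM + 1) among 5978 genes, as a description over sums that share libraries. Nfkbia ran closest to Lcn2 (0.94), Oasl1 (0.94) and Gadd45b (0.93), and Nfkbib to Nfkb2 (0.92). The nuclear IkBs had different neighbours: Nfkbiz went with S100a9 (0.90), Bcl3 with Trim30a (0.94) and Nfkbid with Btg1 (0.75). Tnfaip3 was nearest to Nfkbia (0.89) and Zc3h12a (0.89), Tnip1 to Rnd1 (0.92), Tnip3 to Ifi205 (0.94), and Birc3 and Nfkbie to each other (0.90). Within the set, Nfkbia and Bcl3 ran together (0.91), while Nfkbid ran from -0.03 with Tnip1 to 0.51 with Nfkbie.

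The rest of the pathway rose less evenly. Of the NF-kB subunit genes, 52 of 55 tests rose and 2 fell, where 29.1% and 26.8% did over all genes and classes, among them Nfkb1 (3.40), Nfkb2 (3.46) and Relb (3.67) in neutrophils. The IkB kinase list had 26 higher and 6 lower of 54. Ikbke, a noncanonical kinase, went from 1.17 and 2.64 CPM in vehicle neutrophils to 585 and 593 in WT and 374 and 377 in KO LPS libraries, whereas Ikbkb, the canonical kinase, fell in classical monocytes (-1.01). Of the LPS receptor and adaptor list 76 rose and 20 fell of 164, with Cd14, the LPS co-receptor, at 62.4 and 186 CPM in vehicle, 4905 and 4936 in WT LPS and 3512 and 3532 in KO LPS neutrophils. The tumour necrosis factor receptor list had 70 higher and 13 lower of 132, and the list of other deubiquitinases and negative regulators 77 and 27 of 153, including Zc3h12a, the gene of an RNase that cuts inflammatory mRNAs, in neutrophils (3.11). In KO against WT under LPS these 5 lists had 22 lower and 1 higher, 10 and 1, 39 and 8, 31 and 2, and 31 and 18, in the same order (10.2% and 8.57% over all genes and classes), and for the difference in response 5 and 0, 4 and 0, 13 and 1, 7 and 1, and 10 and 1 (3.13% and 2.71%).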

How the data were processed

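The members and gene lists were chosen with earlier results of these data known. The deposited values are raw UMI counts per gene and barcode, which the authors produced using Cell Ranger 6.1.0 and mm10, with Seurat 4.1.0 and R 4.1.3 also named, per the submitters' processing notes. Which annotation they used is not stated in these sources, and gene positions came from GENCODE M21.

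From 64428 barcodes, 61736 with at least 200 genes and at most 10% mitochondrial UMIs passed. Scrublet's automatic threshold called 0 cells in 4 libraries, so the highest-scoring 6.94% to 9.89% of cells per library were removed as doublets, leaving 56341. Clustering (scanpy 1.11.5, leidenalg 0.10.2, 1938 genes without the members and pathway lists, 30 components, 20 neighbours) gave 61 clusters, of which 47 were named by fixed markers, 11 were removed as mixed and 3 had no name. Resolution was raised to 2.5 after a first clustering had merged monocyte types. Sums of classes reaching 30 cells per library went into edgeR 4.0.16 (TMM scaling, its group-wise filter on low counts, quasi-likelihood test, 2 residual degrees of freedom) in R 4.3.3, all 6 libraries in 1 fit, with Benjamini-Hochberg adjustment over all genes of a class and comparison. Pairs of classes were tested with the library as a block. DESeq2 1.42.0 was the other tool. Free RNA was not subtracted. Ratios of counts have exact 95% intervals (scipy 1.17.1), which cover counting error only. All 10 members were named by rule, as were the 4 genes of each pathway list with the smallest p in a class. The scripts were tested on simulated data. The replicate numbers of LPS libraries were checked and did not pair them, with correlations of same-numbered deviations of -0.0535 to 0.0792.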

Additional observations from a re-analysis of the deposited data

Results flagged for a closer look

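The first group of results differed between genotypes by the interaction test of edgeR (KO response minus WT response on the log2 scale, adjusted p from 4.46e-09 to 0.0429). In alveolar macrophages these were Bcl3 (-1.89), Tnip1 (-1.06), Tnfaip3 (-0.82), Nfkbib (-0.64), Nfkbie (-0.60), Birc3 (-0.58) and Nfkbia (-0.42). Classical monocytes had Tnfaip3 (-2.17), Nfkbiz (-1.99), Bcl3 (-1.92), Nfkbia (-1.14), Nfkbib (-0.97) and Birc3 (-0.75). Neutrophils had Tnfaip3 (-1.89), Bcl3 (-1.82), Nfkbia (-1.81), Nfkbiz (-1.63) and Birc3 (-1.12). In B cells the differences were -1.38 for Nfkbib, -1.09 for Tnfaip3 and 0.53 for Birc3, the only positive one. T cells showed Bcl3 (-1.47), Tnfaip3 (-0.94) and Nfkbia (-0.79), and NK cells Bcl3 (-1.70), Nfkbia (-1.16) and Tnfaip3 (-0.89). Dendritic cells had Tnfaip3 (-1.51), Nfkbib (-1.02) and Nfkbia (-0.84), interstitial macrophages Tnfaip3 (-1.15) and Nfkbia (-1.10), nonclassical monocytes Bcl3 (-1.61) and Tnfaip3 (-1.14), and endothelial cells Nfkbib (-1.14). Each rests on 1 vehicle library per genotype, and sex marks differed with genotype; what they contribute cannot be told apart.

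Differences in response between classes were found by the same kind of test within libraries. Neutrophils exceeded alveolar macrophages in Tnip3 (3.79), Tnip1 (2.64), Nfkbib (2.44), Birc3 (1.75) and Nfkbia (0.77) and fell behind in Nfkbid (-1.93) and Nfkbiz (-1.14). The Tnip3 value (SE 0.83) rests on 1 vehicle UMI in neutrophils. Classical monocytes exceeded alveolar macrophages in Tnip1 (1.81), Tnip3 (1.45) and Nfkbib (0.44), with Nfkbiz (-3.27), Nfkbid (-1.96), Nfkbie (-1.24), Bcl3 (-1.08) and Birc3 (-0.96) on the other side. B cells against T cells gave 1.06 for Tnfaip3, 1.02 for Nfkbid, 0.77 for Nfkbiz, -1.14 for Bcl3 and -1.57 for Birc3.

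Signal also appeared in classes too small to be tested. The lowest Nfkbia level in an LPS library was 762 plain CPM in epithelial cells, 458 in plasmacytoid dendritic cells and 190 in platelets, each above its vehicle libraries (59.9 and 99.97, 148 and 134, and 153 and 0). The vehicle values rest on few UMIs, 14 and 26, 2 and 15, and 8 and 0 in the same order. The free RNA bound was not set for these classes.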

How the results depend on the processing

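Under every alternative that was run, 92 to 102 tests rose after LPS, and 1 (DESeq2) to 5 (plain CPM) fell, against 3. For KO against WT under LPS, the 61 lower became 39 with DESeq2 and 13 with Xist-marked cells, and the 0 higher became 5 with Xist-marked cells, 2 with plain CPM, 1 with no doublet removal, 1 with no low-count filter and 0 to 1 on leaving out a library (1 without KO LPS replicate 2). Smaller responses in KO went from 34 to 22 with DESeq2 and 9 with Xist-marked cells. DESeq2 gave no adjusted p for some tests of these 2 comparisons. The counts of 39, 22 and 9 are given without their shares over all genes. With cells thinned to 2000 UMIs, 19 calls of KO against WT and 12 calls of a difference in response no longer passed. With plain CPM these were 11 and 5. On leaving out a library, 5 to 13 calls of KO against WT no longer passed. The 1 larger response was 0 with DESeq2, at most 5% mitochondrial UMIs, cells thinned to 2000 UMIs or cells named singly, and 0 to 1 on leaving out a library (0 without KO LPS replicate 1 or WT LPS replicate 1). Neutrophils exceeded alveolar macrophages in 2 genes and fell behind in 5 with plain CPM, and 3 genes in place of 5 were highest in neutrophils. Changes of sign were counted only where the main or the alternative fit passed the threshold. After LPS they were those of Nfkbid in nonclassical monocytes (0.13, cells named singly) and Nfkbiz there (-0.25, plain CPM). KO against WT, Xist-marked cells turned Nfkbia in alveolar macrophages (0.19), classical monocytes (0.052), dendritic cells (0.026) and endothelial cells (0.068), Tnfaip3 in alveolar macrophages (0.41), endothelial cells (0.0060) and interstitial macrophages (0.038), Tnip3 in alveolar macrophages (0.22), classical monocytes (0.48), dendritic cells (0.14) and neutrophils (0.043), Nfkbib in interstitial macrophages (0.012), Nfkbid in alveolar macrophages (0.0042), Nfkbiz in endothelial cells (0.027) and Tnip1 in classical monocytes (0.085). So did Nfkbie in neutrophils with plain CPM (0.033), Tnip3 in alveolar macrophages with thinned cells (0.34) and Tnip3 in nonclassical monocytes with cells named singly (-0.26). The difference in response turned in alveolar macrophages with Xist-marked cells for Nfkbia (0.24), Nfkbib (0.044), Nfkbie (0.24) and Tnfaip3 (0.021), and neutrophils fell behind alveolar macrophages with plain CPM in Bcl3 (-1.08), Nfkbia (-0.63) and Tnfaip3 (-1.16). The cause was not tested. With the replicate number as a replicate block, 63 of 108 were lower and 0 higher; Nfkbid in endothelial cells (-0.92) and Nfkbie in interstitial macrophages (-0.48) were newly called and the other 106 kept their call. The Xist restriction, a finer clustering and leaving out the monocyte cluster led by Prtn3 and Mpo were chosen after seeing the data; the last left the counts over all classes at 100 and 3, 61 and 0, and 34 and 1. The planned restrictions to Xist-marked or Y-marked cells in every library were not run, since the WT vehicle library held almost no Xist-marked and the WT LPS libraries almost no Y-marked cells. Depth kept Nfkbid in stromal cells, with 2 vehicle and 15 LPS UMIs, from being tested.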

Other observations

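Epithelial cells, with 26 and 32 cells in the vehicle libraries and 24 to 55 in the LPS libraries, were too few for a test, and their values are single sums of plain CPM without error. Nfkbia stood at 59.9 and 99.97 CPM with vehicle, 1593 and 2170 in the WT LPS libraries and 1064 and 762 in the KO LPS libraries. Tnfaip3 had 1 UMI in the vehicle libraries together and 47, 124, 110 and 66 UMIs in the LPS libraries. Tnip1, on 4 and 2 vehicle UMIs, was at 297 and 137 CPM in WT and 65.2 and 131 in KO, and Bcl3 at 178 and 135 in WT and 51.8 and 81.2 in KO. In 9 of the 10 genes every LPS library lay above both vehicle libraries, Tnip3 being the other, and the same held for 8.9% of all genes with a mean of at least 1 CPM there.

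Plasmacytoid dendritic cells (3 and 16 vehicle cells, 17 to 30 LPS cells) had Bcl3 at 167 and 135 CPM in WT and 151 and 144 in KO LPS libraries, against 0 and 2 vehicle UMIs, and their Tnfaip3 levels overlapped, at 37.5 to 251 CPM with LPS and 80.6 in the KO vehicle library. Platelets (16 to 94 cells) had Nfkbia at 549 and 460 CPM in WT and 190 and 296 in KO LPS libraries.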
